A study of Mus musculus with 25 samples.

Results

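The genes described here encode the proteasome, its inducible variant (the immunoproteasome) and the factors that activate or assemble them, as measured by RNA sequencing of mouse cortex. They were chosen by name: protein-coding genes whose symbol begins with Psma to Psmg followed by a digit, and which reached 0.5 FPKM (fragments scaled by gene length and library size) in at least 5 of 25 libraries. Of 54532 genes listed, 50 had such a name and 48 passed, among 16450 genes that passed the same filter. Psma8 reached 0.5 FPKM in 1 library and Psmb11 in 0, and both were left out; they encode subunits known from testis and thymus. The 48 were divided into 5 interferon-inducible genes (Psmb8, Psmb9, Psmb10, Psme1 and Psme2) and 43 others.

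The study set 5xFAD mice against wild type and asked what a natural product derivative, labelled P, does to cortical expression. There were 5 groups of 5 mice: wild type given vehicle (WT_Veh) or high P (WT_HighP), and 5xFAD given vehicle (AD_Veh), low P (AD_LowP) or high P (AD_HighP). 5xFAD mice carry human transgenes with familial Alzheimer mutations under Thy1 promoter sequences, which drive them mainly in neurons, so that amyloid forms without the mouse's own genes being altered. The sources used here do not give the strain, age, sex, doses, duration of treatment or identity of P.

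The proteasome degrades proteins tagged with ubiquitin. Its 20S core is a barrel of outer alpha rings and inner beta rings, and 3 beta subunits cut peptides: beta1 (gene Psmb6), beta2 (Psmb7) and beta5 (Psmb5). The 19S cap, built of ATPases and non-ATPase subunits, recognises and unfolds the substrate. Interferon induces replacements for the cutting subunits, beta1i (Psmb9), beta2i (Psmb10) and beta5i (Psmb8), and the PA28 activator made of Psme1 and Psme2; the core that results is the immunoproteasome, which shapes the peptides loaded on MHC class I. In brain it is known mainly from microglia and from inflamed or aged tissue.

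Each library held 15518358 to 17698222 reads assigned to genes, and the 48 genes took 0.234% to 0.279% of them. The 8 neuron marker genes looked at all passed the filter. Xist and Y-linked genes placed 3 males and 2 females in every group. Thy1, whose sequences are in the transgene, was higher in AD_Veh than in WT_Veh by 1.55 on the log2 scale (limma, adjusted p = 1.8e-08), in the direction the genotype labels give. Beyond the genotype, 4 libraries stood apart: 2 of WT_HighP and 2 of AD_HighP had 484 to 820 FPKM of Ttr, the transthyretin of choroid plexus, against at most 58.2 in the other 21. Depth was lower in AD_Veh than in WT_Veh (p = 0.0238) and than in AD_LowP (p = 0.00794, both by two-sided exact permutation of mice). The trend of expression on GC content differed between WT_HighP and WT_Veh, with slopes of 0.173 ± 0.0496 and -0.15 ± 0.148 log2 units per 10 points of GC (SD, n = 5 each; exact p = 0.00794).

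Promoters were examined because interferon acts on these genes through 2 DNA motifs, and the stretches that hold a match are shown to let the inducible genes be set beside the others. The 250 bases before the start of 41 of the 48 genes were in RefSeq (build GRCm38.p6). They were searched on both strands for the interferon-stimulated response element (GAAA, any 2 bases and GAAA) and the gamma-activated site (TTCNNNGAA). Matches are in capitals, each line runs 5′ to 3′ along the gene's strand, and in Psmb3 and Psmd4 the element lies on the opposite strand.
Psmb8, chr17:34198088-34198116, plus strand: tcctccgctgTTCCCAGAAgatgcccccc
Psmg1, chr16:95991185-95991210, minus strand: actcatgTTCTCTGAAtccgcttgca
Psmb3, chr11:97703261-97703290, plus strand: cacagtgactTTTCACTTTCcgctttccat
Psmd4, chr3:95042675-95042704, minus strand: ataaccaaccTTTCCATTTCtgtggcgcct
Psmd9, chr5:123228021-123228050, plus strand: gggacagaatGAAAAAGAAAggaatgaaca

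The Psmb8 stretch holds the only gamma-activated site found in the windows of the 5 inducible genes, 97 bases before the RefSeq start. In Psmb8, Psmb9, Psmd5 and Psmd9 the whole window that held a match lies inside the gene as the annotation bounds it. The same holds for a window of Psma6 and a window of Psmc2. The stretches of Psmb8 and Psmd9 therefore lie inside the gene too. In some other genes, such as Psme2, the RefSeq start lies inside the gene but part of the window does not. The counts cover only the bases in the RefSeq windows. Among the 36 others with a window the only gamma-activated site was that of Psmg1, 243 bases before its start. Of 27025 genes with a window, 8.13% hold this motif. The interferon-stimulated response element was in 0 of the 5 inducible genes and in 3 of the 36 others, against 3.46% of all genes. The core of the antioxidant response element (TGANNNNGC), bound by Nrf1 and Nrf2 at proteasome promoters, was in 2 of 5 and 14 of 36 (38.7% of all genes). The CCAAT box was in 1 of 5 and 13 of 36 (37.5% of all genes). The motifs can overlap one another, and a match is a letter pattern and not a measured binding site.

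Levels in cortex spread widely, with the 2 immunoproteasome genes of the MHC region among the 4 lowest. Averaged over the 25 mice, the ATPase Psmc5 was the most abundant with 77.9 FPKM, followed by Psmd2, a scaffold of the 19S base, with 52.3, the ATPase Psmc1 with 51.8, the alpha-ring gene Psma6 with 49.6 and the beta-ring gene Psmb4 with 49.3. At the other end stood Psmb9 with 0.49 FPKM (30.3 reads per library), Psmc3ip with 0.816 (25.1 reads), and Psmb8 (46.3 reads) level with the assembly chaperone gene Psmg3 (49.2 reads) at 1.01 FPKM each. Psmb10, in contrast, was level in FPKM with the subunit it replaces, with 14.7 beside 14.2 for Psmb7. FPKM divides by the gene length listed, 1705 bases for Psmb10 and 3421 for Psmb7, whereas their aligned transcripts have 1311 and 1160. In reads, Psmb10 had 424 per library and Psmb7 822, so their relative abundance per transcript is uncertain. The PA28 genes lay between, Psme1 at 9.48 FPKM and Psme2 at 3.16.

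**Figure D1:**
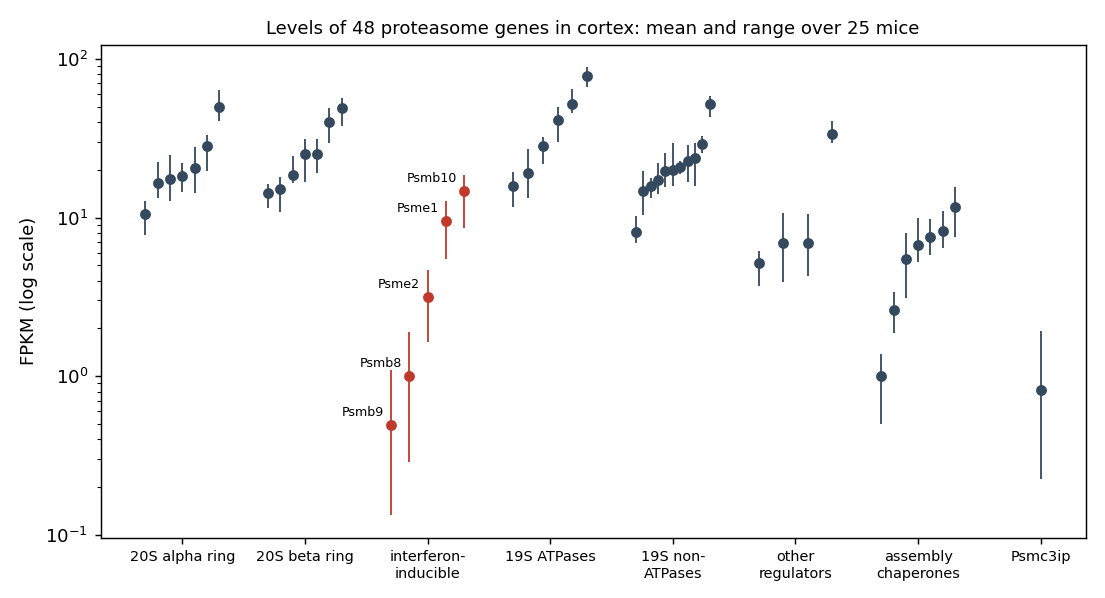
Mean FPKM (points, log axis) and lowest to highest value over 25 mice (bars) of the 48 genes by role, with the interferon-inducible genes in red. Psmb9 at 0.49 FPKM has the lowest mean of the 48, and Psmb10 at 14.7 FPKM lies among the constitutive beta-ring genes.

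Some names need care. Psmc3ip matches the naming rule but encodes a partner of a proteasome ATPase that acts in meiotic recombination, not a subunit. Psme2b is an intronless copy of Psme2, identical to it in 99.37% of 794 aligned transcript bases, so how reads divide between the pair is uncertain. The catalytic pairs are far enough apart to be counted separately, at 70.4% identity for Psmb5 and Psmb8, 66.9% for Psmb6 and Psmb9 and 67.2% for Psmb7 and Psmb10 over the aligned stretches. Psmb9 shares 5.79% of its exonic bases with Tap1 on the opposite strand, and Psmb8 14.7% with an antisense gene model. The libraries were strand-specific, but no source used here says whether the counting used the strand.

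Psmb8 rose in 5xFAD cortex both without and with P. Psmb8 (mm10 chr17:34197721-34201454, plus strand) measured 0.702, 0.838, 0.345, 0.649 and 0.288 FPKM in the 5 WT_Veh mice. In AD_Veh it measured 1.39, 1.28, 1.39, 1.78 and 1.90 FPKM, so every 5xFAD mouse lay above every wild-type mouse. The difference was 0.96 ± 0.18 (SE) on the log2(FPKM + 0.5) scale, which understates the change of such a low gene (limma over all tested genes with Benjamini-Hochberg adjustment, adjusted p = 0.00121). In counts, the WT_Veh values rest on 13 to 38 reads and the AD_Veh values on 58 to 88. It was the only one of the 48 genes called, that is with an adjusted p under 0.05, in a comparison where 3.1% of all tested genes were called.

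Under high P, the genotype difference in Psmb8 was seen again in other mice. The 5 WT_HighP mice measured 0.434, 0.536, 0.508, 0.494 and 0.326 FPKM, and the 5 AD_HighP mice 1.55, 1.47, 1.29, 1.21 and 0.70. AD_HighP mouse 5 was low within its group, yet above every WT_HighP mouse. The difference was 0.84 ± 0.18 (SE; limma, adjusted p = 0.00869), again the only call among the 48 (1.75% of all tested genes). Without the 4 libraries with high Ttr, which leaves 3 mice a group, it was 0.78 and not called (adjusted p = 0.3). AD_LowP mice measured 0.596, 1.53, 1.12, 1.40 and 1.45 FPKM, with mouse 1 in the wild-type range.

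The second gene of the MHC region, Psmb9 (mm10 chr17:34181988-34187764, minus strand), was separated by genotype on vehicle but did not pass the test. It measured 0.312, 0.379, 0.258, 0.194 and 0.133 FPKM in WT_Veh and 0.727, 0.528, 0.618, 0.489 and 0.694 in AD_Veh. The groups did not overlap, which held for 3.02% of all tested genes in this direction. The difference was 0.56 ± 0.16 (SE; limma, adjusted p = 0.0536). All 10 libraries in which Psmb9 reached 0.5 FPKM were of 5xFAD mice, so it entered the tested genes through the groups where it was high. For that reason, tests of Psmb9 between genotypes are not counted as support for a difference. With a smaller pseudocount of 0.1 FPKM the difference was 1.04, and with voom on the recovered reads it was 1.33, both as a description.

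Under high P, Psmb9 measured 0.464, 0.433, 0.314, 0.370 and 0.260 FPKM in WT_HighP and 0.476, 0.892, 0.408, 1.09 and 0.634 in AD_HighP. AD_HighP mouse 3 lay within the wild-type range, and the difference of 0.44 ± 0.16 was not called (limma, adjusted p = 0.249).

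The other inducible genes were higher in 5xFAD on average but overlapped between genotypes. Psmb10 measured 14.5, 11.96, 11.4, 8.57 and 12.5 FPKM in WT_Veh and 18.6, 16.2, 17.3, 10.5 and 14.1 in AD_Veh, where mouse 4 lay below 4 of the 5 WT_Veh mice. Its difference was 0.36 ± 0.15 on vehicle and 0.05 ± 0.15 under high P (limma, adjusted p = 0.297 and 0.947). Psme1 differed by 0.19 ± 0.16 and 0.23 ± 0.16 (adjusted p = 0.754 and 0.696), with 8.42 ± 1.97 FPKM in WT_Veh and 9.54 ± 1.70 in AD_Veh (SD, n = 5). Psme2 differed by 0.32 ± 0.20 and 0.23 ± 0.20 (adjusted p = 0.597 and 0.752), from 2.70 ± 0.82 FPKM in WT_Veh and 2.86 ± 0.798 in WT_HighP. All 5 inducible genes were above 0 in both comparisons, as were 46.1% and 49.6% of all tested genes. The median difference of the 5 was 0.36 and 0.23 against -0.02 and 0.00 over all tested genes. Psmb9, which entered the tested genes through the 5xFAD mice, is among the 5. The count above 0 and these medians are therefore a description only. All 5 are among the 22 members with at least 50% GC, of which 16 were above 0 on vehicle and 9 under high P.

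Because Psme2 and its copy Psme2b cannot be told apart with confidence, their reads were also added. Psme2b alone differed by 0.60 ± 0.18 on vehicle, with groups apart, and by 0.47 ± 0.18 under high P (limma, adjusted p = 0.0845 and 0.302). The sum, in CPM (reads scaled to a common library size), was 9.03 ± 2.00 in WT_Veh and 9.90 ± 2.08 in WT_HighP, and in the 5xFAD groups it was 13.1 ± 2.65 on vehicle, 12.2 ± 1.97 under low P and 13.0 ± 1.18 under high P (SD, n = 5 each). The log2 difference was 0.54 between AD_Veh and WT_Veh (two-sided exact permutation p = 0.0397) and 0.41 between AD_HighP and WT_HighP (exact p = 0.0238), with 3 of 5 5xFAD mice above all wild-type mice each time. These p-values are not adjusted over the 6 comparisons made, and this sum was added after the data were seen.

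**Figure D2:**
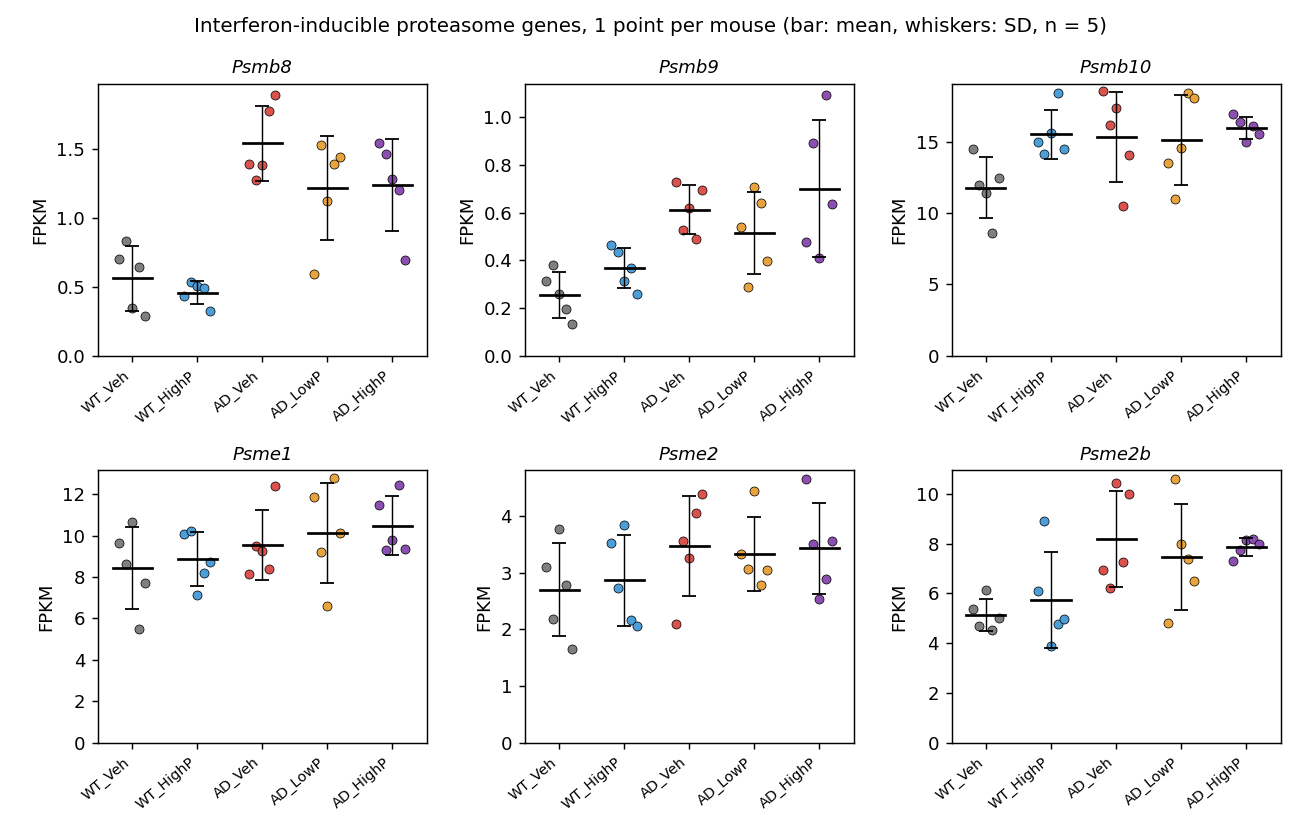
FPKM of the 5 interferon-inducible genes and of Psme2b, the copy of Psme2, with 1 point per mouse, the group mean (bar) and SD (whiskers, n = 5). The AD_Veh points of Psmb8 (1.28 to 1.90 FPKM) and Psmb9 (0.489 to 0.727) lie above all WT_Veh points, whereas those of Psmb10, Psme1 and Psme2 overlap them.

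Set against the subunit each one replaces, the inducible catalytic genes of the MHC region stayed low in FPKM in every group. The level of each ratio rests on the gene lengths listed, 2736 bases for Psmb8 and 899 for Psmb5, where the aligned transcripts have 840 and 899. For Psmb9 and Psmb6 the listed lengths are 3659 and 1872, and the aligned transcripts have 1352 and 798. Comparisons between groups use the same lengths throughout. Psmb8 reached 1.55% ± 0.615 of the FPKM of Psmb5 in WT_Veh and 1.09% ± 0.259 in WT_HighP. In 5xFAD it reached 4.13% ± 1.43 on vehicle, 3.06% ± 1.11 under low P and 3.04% ± 0.57 under high P (SD, n = 5 each). Every AD_Veh mouse exceeded every WT_Veh mouse and every AD_HighP mouse every WT_HighP mouse. The ratio was 2.75 times as high in AD_Veh as in WT_Veh and 2.82 times as high in AD_HighP as in WT_HighP (log2 difference 1.46 and 1.5; two-sided exact permutation p = 0.00794 each, the smallest that 5 against 5 mice can give, adjusted p = 0.0357 over 18 tests). Adjusted over 12 tests, without those of the Psmb9 ratio, it was 0.0476 in both comparisons (exact permutation).

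Psmb9 came to 1.07% ± 0.419 of Psmb6 in WT_Veh and 1.32% ± 0.206 in WT_HighP, and in 5xFAD to 2.55% ± 0.447 on vehicle, 2.15% ± 0.709 under low P and 2.69% ± 1.16 under high P. No 5xFAD mouse overlapped wild type in either comparison (log2 difference 1.32 and 0.94). Since Psmb9 entered the tested genes through the 5xFAD mice, this is a description and no p is given for it. Without the high-Ttr libraries, the differences under high P were 1.42 for Psmb8 to Psmb5 and 1.00 for Psmb9 to Psmb6, and 3 against 3 mice cannot reach the threshold. Leaving out AD_Veh mouse 5 lost the call of Psmb8 to Psmb5 on vehicle (exact permutation, adjusted p = 0.0714). Psmb10 was about level with Psmb7 in FPKM throughout, from 86.6% ± 22.9 in WT_Veh to 114% ± 27.3 in AD_Veh. Its ratio did not pass the test in either comparison (log2 difference 0.40 and 0.13; exact permutation, adjusted p = 0.343 and 0.604).

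**Figure D3:**
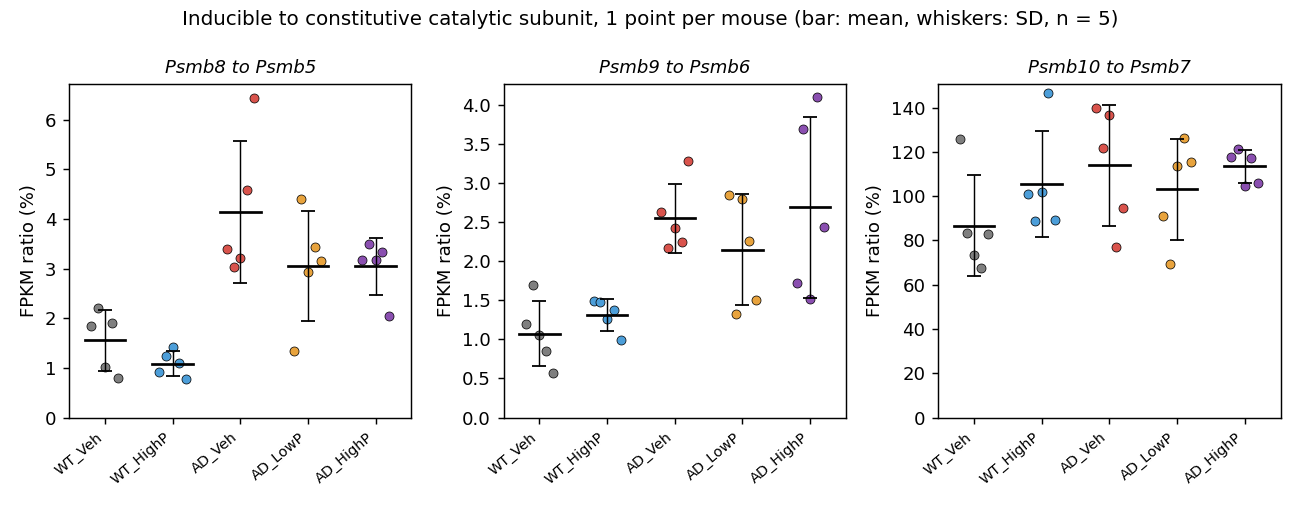
Ratio of each inducible catalytic subunit to the constitutive one it replaces, as percent of FPKM, with 1 point per mouse, the group mean (bar) and SD (whiskers, n = 5). Psmb8 to Psmb5 averages 1.55% in WT_Veh and 4.13% in AD_Veh, while Psmb10 to Psmb7 averages 86.6% and 114% with overlapping points.

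None of the 43 other genes was called by genotype. Psmb5, the constitutive beta5, measured 36.1 ± 2.04 FPKM in WT_Veh and 38.9 ± 5.53 in AD_Veh, Psmb6 23.7 ± 1.57 and 24.1 ± 2.69, and Psmb7 13.8 ± 1.70 and 13.5 ± 0.835 (SD, n = 5 each). Their log2 differences were 0.10, 0.02 and -0.02 on vehicle and -0.09, -0.07 and -0.08 under high P (limma, adjusted p from 0.81 to 0.976). For Psmb6 the 95% interval ran from -0.18 to 0.21 on vehicle. Unadjusted p-values under 0.05 were found for 5 and 4 of the 43, in comparisons where 11.4% and 10.3% of all tested genes had one. On vehicle, the 5xFAD mice lay wholly above wild type for 4 of the 43 and wholly below for 0. Wholly above were 3.02% of all tested genes. The 4 were Psme2b, Psmc1, Psmd4 and Psmd13.

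By role, leaving out Psme2b and Psmc3ip, the differences between AD_Veh and WT_Veh lay between -0.17 and 0.24. The 7 alpha-ring genes ran from -0.16 to 0.04, the 7 constitutive beta-ring genes from -0.09 to 0.11, the 6 ATPases from -0.17 to 0.24 and the 11 non-ATPases from -0.08 to 0.17. The 7 assembly chaperones, which build the ring and base precursors, ran from -0.16 to 0.13. Psmc3, an ATPase of the 19S base, had the largest difference of these genes, from 35.3 ± 3.21 to 41.7 ± 3.06 FPKM (0.24 ± 0.07, limma, adjusted p = 0.0711; singled out after its values were seen), and it was 41.9 ± 1.67 in WT_HighP and 41.4 ± 0.761 in AD_HighP.

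The lowest difference was that of Psmc3ip, from 1.10 ± 0.531 to 0.617 ± 0.152 FPKM (-0.47 ± 0.23, adjusted p = 0.432), and it also had the lowest difference under high P (-0.24 ± 0.23, limma, adjusted p = 0.781). Under high P the 41 genes ran from -0.18 to 0.30, the highest being that of the alpha-ring gene Psma3 from 8.49 ± 0.497 to 10.6 ± 0.807 FPKM (limma, adjusted p = 0.121; also singled out after its values were seen). The 2 genotype comparisons share no mice. Over the 48 genes their differences had a Spearman rho of 0.28 and the same sign in 25, beside a rho of 0.13 and 51.8% of the same sign over all tested genes, as a description.

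**Figure D4:**
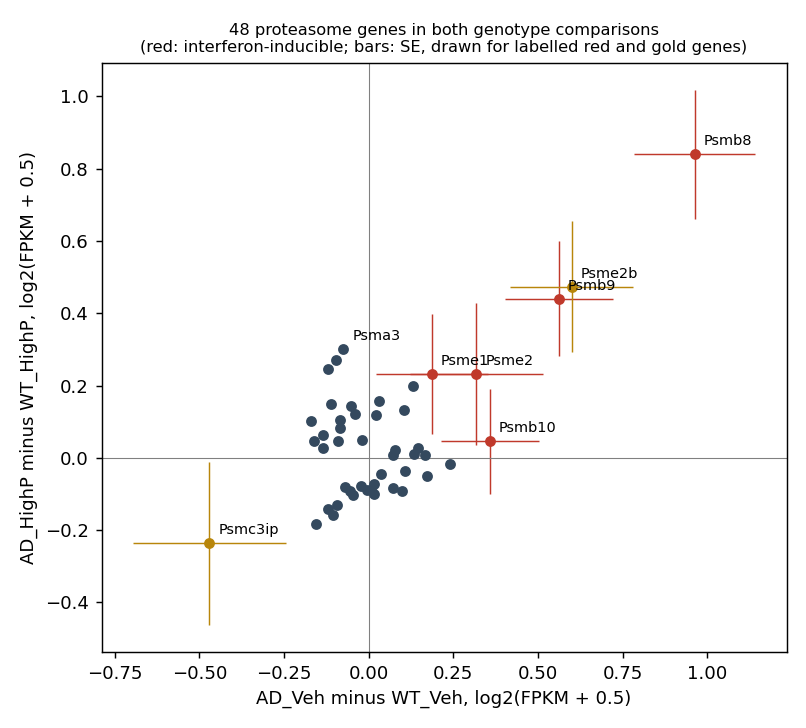
Log2 differences between genotypes of the 48 genes on vehicle (x) and under high P (y), with the interferon-inducible genes in red and Psme2b and Psmc3ip in gold (bars are SE). Psmb8 lies apart at 0.96 and 0.84, and the 41 remaining genes lie between -0.18 and 0.30 on both axes.

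The change of Psmb8 went with changes in microglial markers and in some astrocyte markers. Of 12 microglia genes, 9 were called higher in AD_Veh against WT_Veh and 10 in AD_HighP against WT_HighP, beside 2.83% and 1.5% of all tested genes. All 12 were above 0 in both comparisons. Their summed level was 441 to 642 FPKM in AD_Veh against 141 to 219 in WT_Veh, and 408 to 574 in AD_HighP against 168 to 246 in WT_HighP. Of 7 astrocyte genes, 2 were called higher on vehicle and 1 under high P. Above 0 were 5 of the 7 in each comparison, with medians of 0.24 and 0.11 and lowest differences of -0.11 and -0.12. On vehicle, 5xFAD lay wholly above wild type for 1 of the 7, beside 3.02% of all tested genes. Under high P it was also 1 of the 7, where the share of all tested genes is not given here. Wholly below lay 0 of the 7 each time. The summed level of the 7, Gfap included, did not overlap: 820 to 1106 FPKM in AD_Veh against 494 to 628 in WT_Veh, and 757 to 938 in AD_HighP against 545 to 632 in WT_HighP. Gfap, the filament gene of reactive astrocytes, differed by 3.69 and 2.63 (limma, adjusted p = 2.61e-11 and 1.73e-08; named after its values were seen). All 6 oligodendrocyte genes were above 0 on vehicle (median 0.41, none called), with summed levels that overlapped. Of 10 T and NK cell genes, whose cells also carry immunoproteasomes, 2 passed the filter (Cd4 and Trac) and none was called; the sum of all 10 ran from 3.25 to 6.87 FPKM in AD_Veh, 1.37 to 13.2 in WT_Veh, 1.44 to 5.00 in AD_HighP and 1.23 to 6.77 in WT_HighP, overlapping each time. Cd3e, the defining T cell gene, measured 0 to 0.123 FPKM over all mice. In bulk tissue, more cells of a type and more RNA per cell cannot be told apart, and the part of any of these cell types in the Psmb8 difference was not tested.

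Partner genes were counted in 2 lists, those of MHC class I presentation and those of proteasome function. Of 24 genes that load peptides on MHC class I or control that pathway, 7 were called higher and 0 lower in AD_Veh against WT_Veh. In AD_HighP against WT_HighP, 5 were called higher and 0 lower. Of all tested genes, 2.83% and 1.5% were called higher in these comparisons. B2m, the light chain of MHC class I, went from 115 ± 22.4 to 238 ± 37.3 FPKM on vehicle (1.06 ± 0.16, limma, adjusted p = 6.44e-05) and from 87.4 ± 7.70 to 197 ± 29.1 under high P (1.16 ± 0.16, adjusted p = 4.06e-05). Tap1, the peptide transporter next to Psmb9, differed by 0.32 and 0.74 (adjusted p = 0.6 and 0.0605). The regulators Nlrc5 (0.40 and 0.45) and Irf1 (0.35 and 0.38) were not called (limma, adjusted p from 0.361 to 0.597).

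Of 31 tested proteasome cofactors, such as ubiquitin genes, shuttle factors and assembly factors, 1 was called higher on vehicle, beside 2.83% of all tested genes. Under high P none was called higher, beside 1.5%. The 1 gene was Nfe2l2, which encodes Nrf2 (0.51, limma, adjusted p = 0.0435, named after its value was seen). Pomp, the maturation factor of the 20S core, differed by 0.03 and 0.07, the ubiquitin receptor gene Adrm1 by 0.14 and -0.18, Sem1, a small 19S subunit, by 0.11 and 0.17, and Nfe2l1, which encodes the Nrf1 factor that drives proteasome genes, by 0.18 and -0.02 (limma, adjusted p from 0.447 to 0.962).

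In wild-type mice, high P went with small differences in both directions among the constitutive genes. The comparison called 4 of the 48 genes, 3 lower and 1 higher, where 3.17% of all tested genes were called (1.79% lower and 1.39% higher). Unadjusted p-values under 0.05 were found for 15 of the 48 and for 27.8% of all tested genes. Psma3, a subunit of the alpha ring, measured 9.93, 11.8, 12.5, 11.5 and 12.1 FPKM in WT_Veh and 8.79, 7.73, 8.26, 8.71 and 8.96 in WT_HighP, without overlap (-0.42 ± 0.09, limma, adjusted p = 0.0337). The ATPase Psmc6 measured 16.9, 22.3, 18.9, 23.5 and 24.7 FPKM against 15.1, 13.3, 15.1, 15.4 and 16.3, again without overlap (-0.48 ± 0.12, adjusted p = 0.0435). Groups were apart for 7 of the 48 genes and for 9.42% of all tested genes in this comparison.

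Psme4, which encodes the PA200 activator of the 20S core, measured 6.03, 7.91, 7.34, 10.5 and 8.89 FPKM in WT_Veh and 5.06, 4.30, 5.98, 6.34 and 6.10 in WT_HighP. WT_Veh mouse 1 lay within the range of WT_HighP (-0.50 ± 0.13, limma, adjusted p = 0.044). The ubiquitin receptor gene Psmd4 was the one called higher, from 20.9, 19.96, 20.5, 16.6 and 19.4 FPKM to 25.3, 23.2, 23.0, 25.1 and 24.1, without overlap (0.31 ± 0.09, adjusted p = 0.0494). Among genes not called, Psmb10 had the highest difference (0.39 ± 0.15, adjusted p = 0.0926) and Psma1, of the alpha ring, the lowest (-0.33 ± 0.13, adjusted p = 0.101). Psmb8 differed by -0.12 ± 0.18, Psmb9 by 0.21 ± 0.16, Psme1 by 0.09 ± 0.16 and Psme2 by 0.08 ± 0.20, and Psmb5, Psmb6 and Psmb7 by 0.24, 0.22 and 0.11 (limma, adjusted p from 0.14 to 0.826).

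These 4 differences ran along the GC content of the genes. Over the 48 genes the Spearman rho between GC content and the difference was 0.71, as it was over all tested genes. Of 22 genes with at least 50% GC, 18 were above 0, and of 26 below 50% GC, 19 were below 0. After a correction for the GC trend in each library, the differences were -0.15 for Psma3, -0.10 for Psmc6, -0.32 for Psme4 and 0.19 for Psmd4, and none of the 48 genes was called (limma, adjusted p from 0.213 to 0.658; 22 of all genes were called). The calls were also lost without the 4 high-Ttr libraries and in 8 of 10 fits that each left out 1 mouse: WT_Veh 2, 3, 4 or 5, or WT_HighP 1, 2, 3 or 4. Psma3, Psmc6 and Psme4 each kept the call in 2 of the 10 fits, and Psmd4 in 1. Without WT_Veh mouse 1, 9 of the 48 were called.

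**Figure D5:**
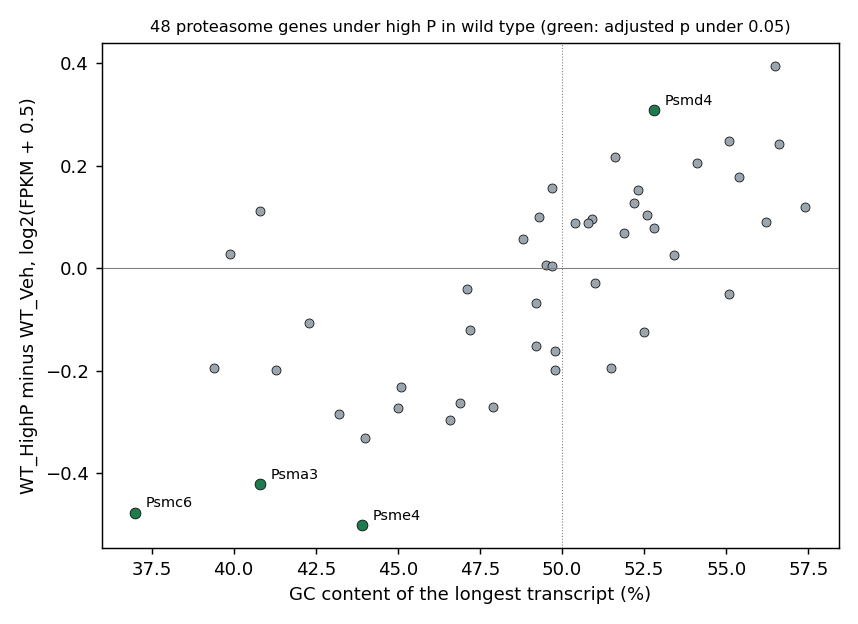
Log2 difference between WT_HighP and WT_Veh of the 48 genes against the GC content of their longest transcript, with the 4 called genes in green and a dotted line at 50% GC. Psmc6, Psma3 and Psme4 are under 50% GC and below 0, and 18 of the 22 genes to the right of the line are above 0.

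In 5xFAD mice no proteasome gene was called under P. The share of all tested genes called was 0 under low P against vehicle, 0.00608% under high P against vehicle, 0 between the doses and 0 for the interaction of genotype with high P. By limma and by voom alike, 0 of the 48 were called in all 4. Unadjusted p-values under 0.05 were found for 0, 1, 4 and 4 of the 48, beside 2.98%, 5.98%, 6.19% and 6.92% of all tested genes.

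For Psmb8, the difference from AD_Veh was -0.28 in AD_LowP (95% interval -0.64 to 0.09) and -0.25 in AD_HighP (-0.62 to 0.12; limma, adjusted p = 1 and 0.785), from a mean of 1.55 ± 0.273 FPKM in AD_Veh to 1.22 ± 0.38 and 1.24 ± 0.332. These comparisons share the AD_Veh mice, and both intervals include 0 as well as falls of this size. The 12 microglia genes were below 0 in both comparisons, by a median of -0.21 each time, with none called.

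Psmb9 differed by -0.14 under low P and 0.08 under high P, Psmb10 by -0.02 and 0.08, Psme1 by 0.06 and 0.14 and Psme2 by -0.03 and -0.01. The constitutive Psmb5, Psmb6 and Psmb7 differed by 0.07, 0.00 and 0.12 under low P and 0.05, 0.13 and 0.06 under high P (limma, adjusted p of 0.785 or more for all 8 genes). The highest and lowest differences among the 48 were those of Psmd12, of the 19S lid, by 0.21 and Psmb8 under low P, and of Psmf1, which encodes the PI31 regulator, by 0.18 and Psmb8 under high P. No ratio of an inducible to a constitutive catalytic subunit passed the test under P (exact permutation, adjusted p of 0.414 or more in wild type and in 5xFAD).

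Between the doses, Psmb9 had the highest difference, high dose against low, 0.23, and Psmd1, of the 19S base, the lowest, from 17.1 ± 2.35 FPKM in AD_LowP to 13.8 ± 1.93 in AD_HighP (-0.30 ± 0.12, limma, adjusted p = 0.773). Psmb8 differed by 0.03 and Psmb10 by 0.10 between the doses, and Psme1, Psme2, Psmb5, Psmb6 and Psmb7 by 0.07, 0.03, -0.02, 0.13 and -0.06. The interaction asks whether the genotype difference changed under high P. It was -0.12 ± 0.25 for Psmb8 (95% interval -0.64 to 0.40) and -0.12 ± 0.22 for Psmb9, with Psma3 highest at 0.38 ± 0.13 and Psmb10 lowest at -0.31 ± 0.21 (limma, adjusted p from 0.71 to 0.914). For Psme1, Psme2, Psmb5, Psmb6 and Psmb7 the interaction was 0.05, -0.09, -0.19, -0.09 and -0.05.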

How the data were processed

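Cortical RNA of 25 mice was measured, 5 mice a group by the labels. Libraries were strand-specific and poly(A)-selected, per the labels' protocols, and reads were aligned to mm10 with HISAT2, per the submitters' processing notes; no counting tool, annotation or version is given in these sources. The deposited table holds FPKM values and other columns such as gene length, made by the authors. Multiplying FPKM by gene length gave whole reads for 100.0% of nonzero values (tolerance 0.01 of a read; mean 16712409 reads per library); PCR duplicates cannot be recognised in them, so read numbers cover counting error only. Of the genes, 54495 were found in GENCODE M21, 98.3% at the same coordinates, from which GC content of the longest transcript was taken. Other ways of taking GC content from a gene's transcripts (means, a median, protein-coding transcripts alone) were looked at once, after the results were known, for their rank correlation with the difference between WT_HighP and WT_Veh; the longest transcript, already in use, was kept.

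Genes with 0.5 FPKM or more in at least 5 libraries were fitted as log2(FPKM + 0.5), with 0.5 as pseudocount, by limma 3.58.1 in R 4.3.3: a mean per group, all 25 libraries, variances following intensity, 20 residual degrees of freedom, two-sided, Benjamini-Hochberg adjustment over 16450 genes within each of 7 contrasts. The median SE was 0.15, and 0.213 for the interaction. Catalytic subunit ratios were tested by exact permutation, adjusted over 18 tests. Every pair of libraries differed by more than counting noise (chi-square per gene at least 5.1). The code was tested on simulated data. In every comparison the 5 inducible and 3 constitutive catalytic genes, every other called member and the highest and lowest uncalled differences were named. The members and lists were chosen with earlier results of these data known. Alternatives covered pseudocount, filter, scaling, voom on recovered reads, GC correction, groups fitted, replicate block, array weights, sex, each library left out and, chosen after seeing the data, the 4 high-Ttr libraries left out and the ratio tests adjusted without those of Psmb9. Some items are not reported here.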

Additional observations from a re-analysis of the deposited data

Results flagged for a closer look

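Of 90 groups of 5 mice looked at (18 named genes in 5 groups), 1 held a mouse far from the rest, where chance flags about 1 in 20. For Psmd4 in AD_Veh, mouse 1 measured 23.9 FPKM and the nearest mouse 21.6, a gap that is 0.851 of the group's range (limit 0.71). Psmd4 is 1 of the 4 genes called under high P in wild type (limma, adjusted p = 0.0494). The difference in that comparison does not use this mouse. The SE does, since all 25 libraries share 1 estimate of the spread.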

How the results depend on the processing

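Psmb8 kept its call between AD_Veh and WT_Veh in all 12 alternative settings and all 10 fits without 1 mouse (limma, adjusted p from 0.000837 to 0.0137). Between AD_HighP and WT_HighP it kept it except without the 4 high-Ttr libraries, where 0 members were called. Members called between AD_Veh and WT_Veh numbered 2 with a pseudocount of 0.1 FPKM or quantile normalization and 3 with voom or array weights (without 1 mouse, 1 to 2). The counts with a pseudocount of 0.1 FPKM and with voom include Psmb9, which entered the tested genes through the 5xFAD mice. Psmb9 stayed uncalled in 9 of the 10 fits without 1 mouse, so it also enters the counts there. Psmb10 stayed uncalled in 11 of the 12 settings and in all 10 fits without 1 mouse (limma, adjusted p from 0.0183 to 0.618). Between AD_HighP and WT_HighP they numbered 2 with only the groups compared and 3 with array weights. Between WT_HighP and WT_Veh they numbered 0 with no filter, with GC correction or without the high-Ttr libraries, 12 with array weights, and 0 to 9 without 1 mouse. No member was called under P in 5xFAD or in the interaction in any setting run.

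Same-numbered mice did not deviate together (11 of 50 pairs correlated over 0.1, and 5 of 25 libraries lay closest to their own number), so they were not treated as pairs. The numbers still follow sex, with mice 1 to 3 male and mice 4 and 5 female in every group. From mouse 1 to mouse 5 the GC slope went from 0.0726 to -0.291 in WT_Veh, 0.189 to 0.0983 in WT_HighP and 0.114 to -0.251 in AD_Veh. It went from 0.176 to -0.0864 in AD_HighP but from -0.282 to 0.158 in AD_LowP. With a replicate block, 1 member was called between WT_HighP and WT_Veh. The genotype differences of Psmb8 to Psmb5 (1.46 and 1.5) had adjusted p = 0.225 each by exact permutation within the block, which cannot reach the threshold. Without the high-Ttr libraries the difference of Psmb8 to Psmb5 under high P was 1.42 (exact permutation, adjusted p = 0.36). That of Psmb9 to Psmb6 was 1.32 on vehicle and 0.94 under high P, and 1.00 without those libraries, as a description only. Without 1 mouse, Psmb8 to Psmb5 on vehicle ran from 1.24 to 1.61, and Psmb9 to Psmb6 from 1.12 to 1.51 on vehicle and 0.76 to 1.11 under high P.

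The other reversals were of differences that passed no test; the cause was not tested. Among the widest were those between WT_HighP and WT_Veh with GC correction, where Psmb10 to Psmb7 went from 0.29, Psmb9 to Psmb6 from 0.37 and Psmb5 from 0.24 to the values below 0 given next. With GC correction they were, between AD_Veh and WT_Veh, -0.017 for Psmb6 and 0.071 for Psmb7; between WT_HighP and WT_Veh, -0.030 for Psmb5, -0.17 for Psme1, -0.043 for Psme2, -0.11 for Psmb9 to Psmb6 and -0.26 for Psmb10 to Psmb7; between AD_LowP and AD_Veh, 0.0065 for Psmb6. Between AD_HighP and AD_Veh they were -0.047 for Psmb5, -0.016 for Psmb10 and -0.16 for Psmb10 to Psmb7, and between the doses -0.013 for Psmb10, 0.019 for Psmb7, -0.035 for Psme1, -0.029 for Psme2, -0.021 for Psmb8 and -0.032 for Psmb10 to Psmb7. With array weights, Psmb6 was 0.024 and Psme2 0.017 between AD_LowP and AD_Veh. Psmb5 was then -0.0093, Psmb10 -0.030 and Psme2 0.046 between AD_HighP and AD_Veh, Psmb10 -0.026 between the doses and the interaction of Psmb8 0.090.

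With voom, Psme2 was 0.022 between AD_HighP and AD_Veh and Psmb5 0.010 between the doses. Trimmed-mean scaling gave 0.0030 for Psmb6 between AD_LowP and AD_Veh, quantile normalization -0.012 for Psmb8 between the doses, and a pseudocount of 0.5 FPKM -0.012 for Psmb9 to Psmb6 between WT_HighP and WT_Veh. Without the high-Ttr libraries, Psmb10 was -0.040 between AD_HighP and WT_HighP, Psme1 -0.041 and Psme2 -0.0088 between WT_HighP and WT_Veh. Between the doses Psme1 was then -0.055, Psme2 -0.050, Psmb8 -0.055 and Psmb8 to Psmb5 -0.011, and Psmb10 to Psmb7 was -0.0087 between AD_HighP and AD_Veh.

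Without 1 mouse, the ranges that crossed 0 were, between AD_Veh and WT_Veh, -0.034 to 0.061 for Psmb6 and -0.085 to 0.020 for Psmb7, and between WT_HighP and WT_Veh, -0.046 to 0.18 for Psme1 and -0.054 to 0.19 for Psme2. Between AD_LowP and AD_Veh they were -0.064 to 0.077 for Psmb6, -0.14 to 0.087 for Psmb10, -0.18 to 0.050 for Psme2, -0.024 to 0.13 for Psmb5 and -0.027 to 0.20 for Psme1. Between AD_HighP and AD_Veh they were -0.15 to 0.080 for Psme2, -0.043 to 0.16 for Psmb10, -0.042 to 0.11 for Psmb5, -0.026 to 0.18 for Psmb9, -0.19 to 0.16 for Psmb9 to Psmb6 and -0.11 to 0.11 for Psmb10 to Psmb7. Between the doses they were -0.088 to 0.039 for Psmb5, -0.13 to 0.16 for Psmb8, -0.0040 to 0.18 for Psmb10, -0.063 to 0.16 for Psme1, -0.078 to 0.12 for Psme2 and -0.20 to 0.23 for Psmb8 to Psmb5. In the interaction they were -0.11 to 0.0071 for Psmb7, -0.043 to 0.18 for Psme1, -0.23 to 0.047 for Psme2 and -0.21 to 0.0052 for Psmb8. Psmb8 and Psmb9 rest on 8 to 88 reads a library, which limits what could be detected in them.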
